A study of Bos grunniens with 18 samples.

Results

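Single-exon circular RNAs, circRNAs closed within 1 annotated exon, were taken from testis of the yak (Bos grunniens) at 3 ages. The members were all circRNAs that the authors' deposited annotation puts in its one-exon class, 1245 of the 73679 circRNAs in the table (1.69%). A circRNA forms when the splicing machinery joins a downstream splice donor to an upstream splice acceptor, so that the exon or exons between them close into a ring without ends. Rings are spared by exonucleases that need a free end, and they can persist longer than the linear messenger RNA of the same host gene. Long exons with inverted repeats in the flanking introns are known as favoured sources of single-exon rings, and the testis, with its waves of germ cell differentiation, is among the organs known for many circRNAs.

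The 9 libraries came from 9 healthy male animals of 1 cooperative, castrated under anaesthesia, with 3 animals at each of 6 months (Y6M), 18 months (Y18M) and 4 years (Y4Y). RNA of testis tissue was depleted of ribosomal RNA before sequencing, so circular and linear RNA were read from the same libraries. No treatment or genetic change separated the groups, and age was the only factor. A second label tag calls the 4-year animals infancy, the 6-month animals adolescence and the 18-month animals adulthood, which contradicts the ages in the titles, and the ages were used here.

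The 9 libraries held 119786 to 227150 back-splice reads and 22.95 to 33.12 M gene counts (M, units of 1000000), and 4089 to 10287 of the back-splice reads in each belonged to single-exon circRNAs. Summed over 7 germ cell markers, all in the gene table, the 6-month libraries held 10.7 to 24.5 gene CPM (counts per 1000000 gene counts of the library). The 18-month libraries held 390.7 to 1902.0, with 1902.0 in replicate 1, 390.7 in replicate 2 and 982.9 in replicate 3, and the 4-year libraries held 2158.6 to 2512.3. Over 6 Sertoli cell markers the ranges were 4147.8 to 4809.9, 416.9 to 1476.4 and 336.9 to 425.0, and over 5 Leydig cell markers they were 12092.4 to 18721.8, 2652.1 to 6935.8 and 2651.1 to 4429.6. These marker sums moved with age, and their part in the results was not tested. In bulk tissue, fewer cells of a type and less RNA per cell cannot be told apart.

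In every one of the 1245 members the spliced length equalled the genomic distance between the junction ends. Lengths ran from 135 bases, in rings of MFN1 (a mitochondrial fusion GTPase) and NRDC (nardilysin, a protease), to 5715 bases in TCF20, a nuclear coregulator, which had 30 reads. The median was 497 bases, with quartiles of 312 and 819, against a median of 654 bases and quartiles of 448 and 1006 in multi-exon circRNAs. A length divisible by 3, which keeps a reading frame open around the ring if there is no stop, was found in 475 members (38.2%) and in 37.4% of multi-exon circRNAs.

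The members came from 1120 host genes. A single member was found in 1003 hosts, 2 in 109 hosts and 3 in 8 hosts: BCL11B, FAT3, INSR, NBEA, PCMTD1, PEAK1, PLCE1 and TMCC1. Hosts of 981 members (78.8%) also gave a multi-exon circRNA, and 709 members shared a start or an end with one. The other 536 members (43.1%) used a pair of junction ends found in no multi-exon circRNA. Of the members, 652 lay on the plus and 593 on the minus strand, 44 (3.53%, against 2.54% of multi-exon circRNAs) on the X chromosome, and 1, with 3 reads, on the mitochondrial genome.

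Most members were rare. The median total over the 9 libraries was 5 reads, 357 members had 2 reads in all, 634 were seen in 1 library, and 79 (6.3%, against 4.0% of multi-exon circRNAs) were seen in all 9. Reads were concentrated in a few rings, since the 3 most abundant members held 18.1% of all member reads, the top 10 held 32.6% and the top 50 held 65.6%. In the files a value of 1 was rarer than a value of 2 (78 against 840 values among members), and the minimum behind this is not given in the sources used here. Counts of detected rings therefore rest on an unstated floor.

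At 6 months 4.53% ± 0.188 (SD, n = 3) of back-splice reads belonged to single-exon circRNAs, at 18 months 4.18% ± 0.399 and at 4 years 3.26% ± 0.156. By library the shares were 4.75%, 4.41% and 4.44% at 6 months, 3.74%, 4.53% and 4.26% at 18 months, and 3.25%, 3.1% and 3.41% at 4 years. Every 4-year library lay below every younger one, while the 6-month and 18-month libraries overlapped. The spread between ages was larger than that between libraries (exact permutation test over 280 groupings, p = 0.0107, smallest possible p = 0.00357). Without the most abundant ring, of INSR, the shares were 4.07%, 4.02% and 3.21% (p = 0.0321 by the same exact test). Without the 10 most abundant members they were 2.87%, 2.94% and 2.33%, and the exact test was no longer passed (p = 0.0643). Over the same libraries the share of multi-exon circRNAs moved from 82.8% to 78.1% and 74.8%, that of exon and intron circRNAs from 8.55% to 10.8% and 13.1%, and that of intergenic ones from 3.44% to 5.55% and 7.18%. Among single-exon and multi-exon circRNAs alone the members held 5.19%, 5.07% and 4.17% (p = 0.0214 by the exact test).

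**Figure D1:**
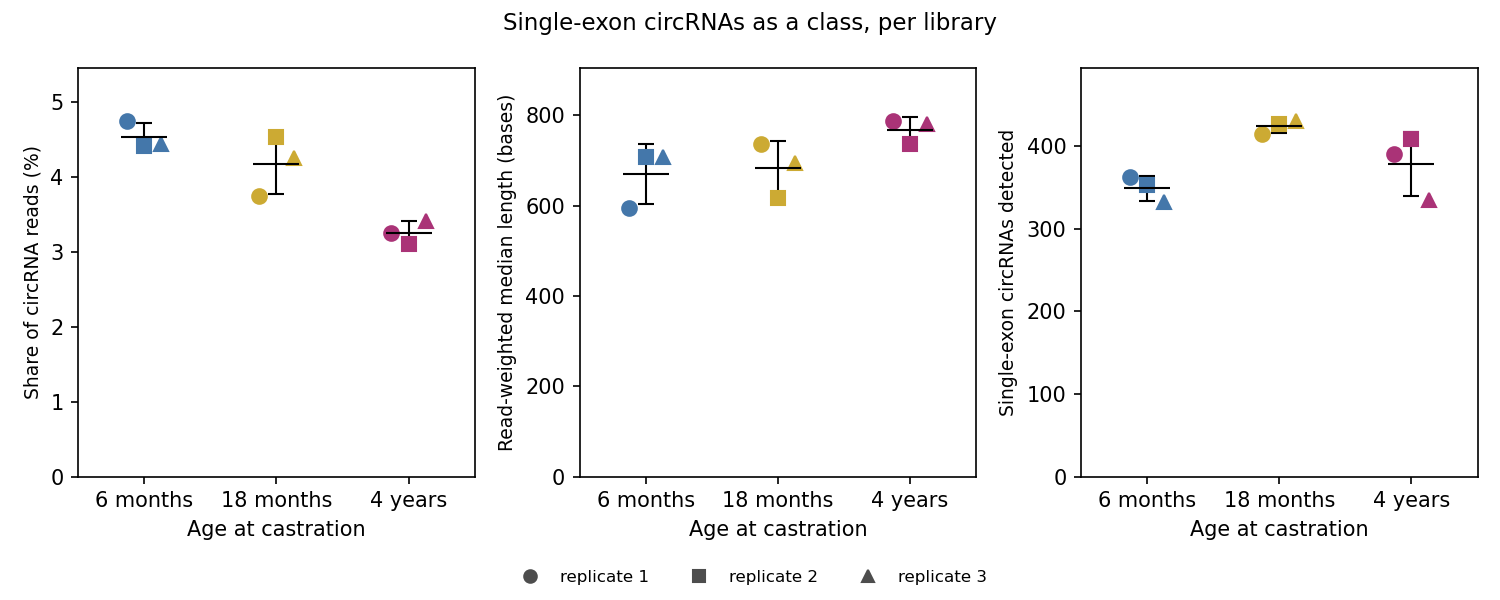
Single-exon circRNAs in each of the 9 libraries by age (x axis), with the mean and SD of 3 libraries: their share of back-splice reads in percent, their read-weighted median length in bases, and the number detected after every library is thinned to 119786 reads. The 4-year libraries sit between 3.1% and 3.41% of reads, below all younger libraries, and the 18-month libraries hold the most detected members.

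The number of different rings did not follow the share of reads. Thinned to the depth of the smallest library, the 6-month libraries were expected to hold 348.8 ± 15.2 members (SD, n = 3), the 18-month libraries 424.0 ± 8.63 and the 4-year libraries 378.1 ± 38.4. All 18-month libraries, at 414.2, 427.3 and 430.5, lay above the others, of which the highest was 408.6 in 4-year replicate 2 (p = 0.0464, exact permutation test). The call was lost when any 6-month or 18-month library or 4-year replicate 1 was left out (p = 0.0536 to 0.0964, exact permutation test), and it was kept without 4-year replicate 2 (p = 0.025) or replicate 3 (p = 0.00714). The length of the average ring read, the read-weighted median, was 670.3 ± 66.1, 682.7 ± 60.5 and 768.7 ± 28.4 bases with age, a difference that did not pass the exact permutation test (p = 0.157).

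Of the 1245 members, 138 (11.1%) had enough reads for a test in every comparison, against 5.26% of all circRNAs and 6.4% of multi-exon ones. These 138 members came from 134 hosts, had 47 reads or more and held 81.7% of all member reads. Levels are given below as CPM, back-splice reads per 1000000 back-splice reads of tested circRNAs after scaling between libraries, so they are relative to other circRNAs, and differences as log2 ratios. A member was called at an adjusted p under 0.05, from edgeR's quasi-likelihood test with Benjamini-Hochberg adjustment over all 3877 circRNAs tested. Of the 1107 members with too few reads, 183 were seen only at 6 months, 273 only at 18 months and 225 only at 4 years. The one with most reads was a 367-base ring of TMEFF1 on the X chromosome, with 197 reads, all of them in 18-month replicate 3.

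Within their hosts the tested members were often the leading ring. A tested host had a median of 10 circRNAs, and its single-exon member held a median of 60.5% of its back-splice reads. In 82 of the 138 members that share was above 50%. These members had passed a minimum of reads, which favours a high share. No such share is given here for tested multi-exon circRNAs, so the values describe these members alone. The ring of PLCXD3, which has a phospholipase domain, was the only one of its host (100%), while that of DENND5B, an exchange factor for Rab GTPases, held 5.33% of the reads of 34 circRNAs.

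The most abundant member was an 899-base ring of RNF111, the ubiquitin ligase Arkadia that enhances TGF-beta signalling (chr10:51281141-51282039, minus strand, coordinates as the files give them). It stood at 5094.9, 4791.8 and 4345.3 CPM at 6 months, 4675.1, 3242.4 and 3998.8 at 18 months, and 4206.0, 3390.2 and 2043.3 at 4 years. All 4-year values lay below all 6-month values, and the difference did not pass the test (log2 -0.56 ± 0.36 SE, adjusted p = 0.293). A 1707-base ring of PCNX1, a multi-pass membrane protein, came next in total reads, with 3693. It ranged from 3038.8 to 5108.0 CPM over the 9 libraries (4 years against 6 months, log2 -0.40 ± 0.32, adjusted p = 0.391). These 2 rings were read in every library at a level that varied less than 3-fold between the lowest and the highest.

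The third was a 552-base ring of INSR, the insulin receptor (chr7:16180447-16180998, minus strand), with 3643 reads. It stood at 8057.1, 6499.5 and 6151.7 CPM at 6 months, 1187.5, 3901.1 and 2510.9 at 18 months, and 1012.1, 942.8 and 776.5 at 4 years. The 3 ages did not overlap, and at 6 months the ring was the strongest of all members. It fell by 2.92 ± 0.47 on the log2 scale from 6 months to 4 years (adjusted p = 0.0081), while the 18-month difference of -1.45 ± 0.44 did not pass (adjusted p = 0.084). This 1 ring held 97.4% of the back-splice reads of 17 INSR circRNAs. Its host gene ran in parallel, at 129.9, 160.4 and 132.0 gene CPM at 6 months and 16.0, 17 and 13.3 at 4 years. Relative to the host the ring differed by 0.21 ± 0.28 (adjusted p = 0.667). Reads inside the ring's exon may count toward the host gene as well, so a parallel course can be partly built in. The other INSR members were rings of 322 and 275 bases with 40 and 3 reads.

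Abundant rings without a call on their level included those of HIPK1 (a nuclear kinase), KANSL1L (a relative of a histone acetyltransferase complex subunit), GPC5 (a glypican) and SYT9 (a synaptotagmin). Relative to its host the KANSL1L ring was called lower at 4 years than at 6 months, a call kept in 1 of 9 fits that left out a library. PDE5A, which breaks down cyclic GMP, gave a 589-base ring that was highest in 18-month replicate 2 and replicate 3, at 4110.0 and 2386.9 CPM, against 229.4 to 1455.1 at 6 months and 258.8 to 1114.2 at 4 years. Replicate 1 at 18 months, at 1150.1, lay within the 6-month range, and no comparison passed the test. A 1372-base ring of KANSL1, part of the same acetyltransferase complex, was read 109 to 181 times in 8 libraries and not at all in 4-year replicate 2.

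**Figure D2:**
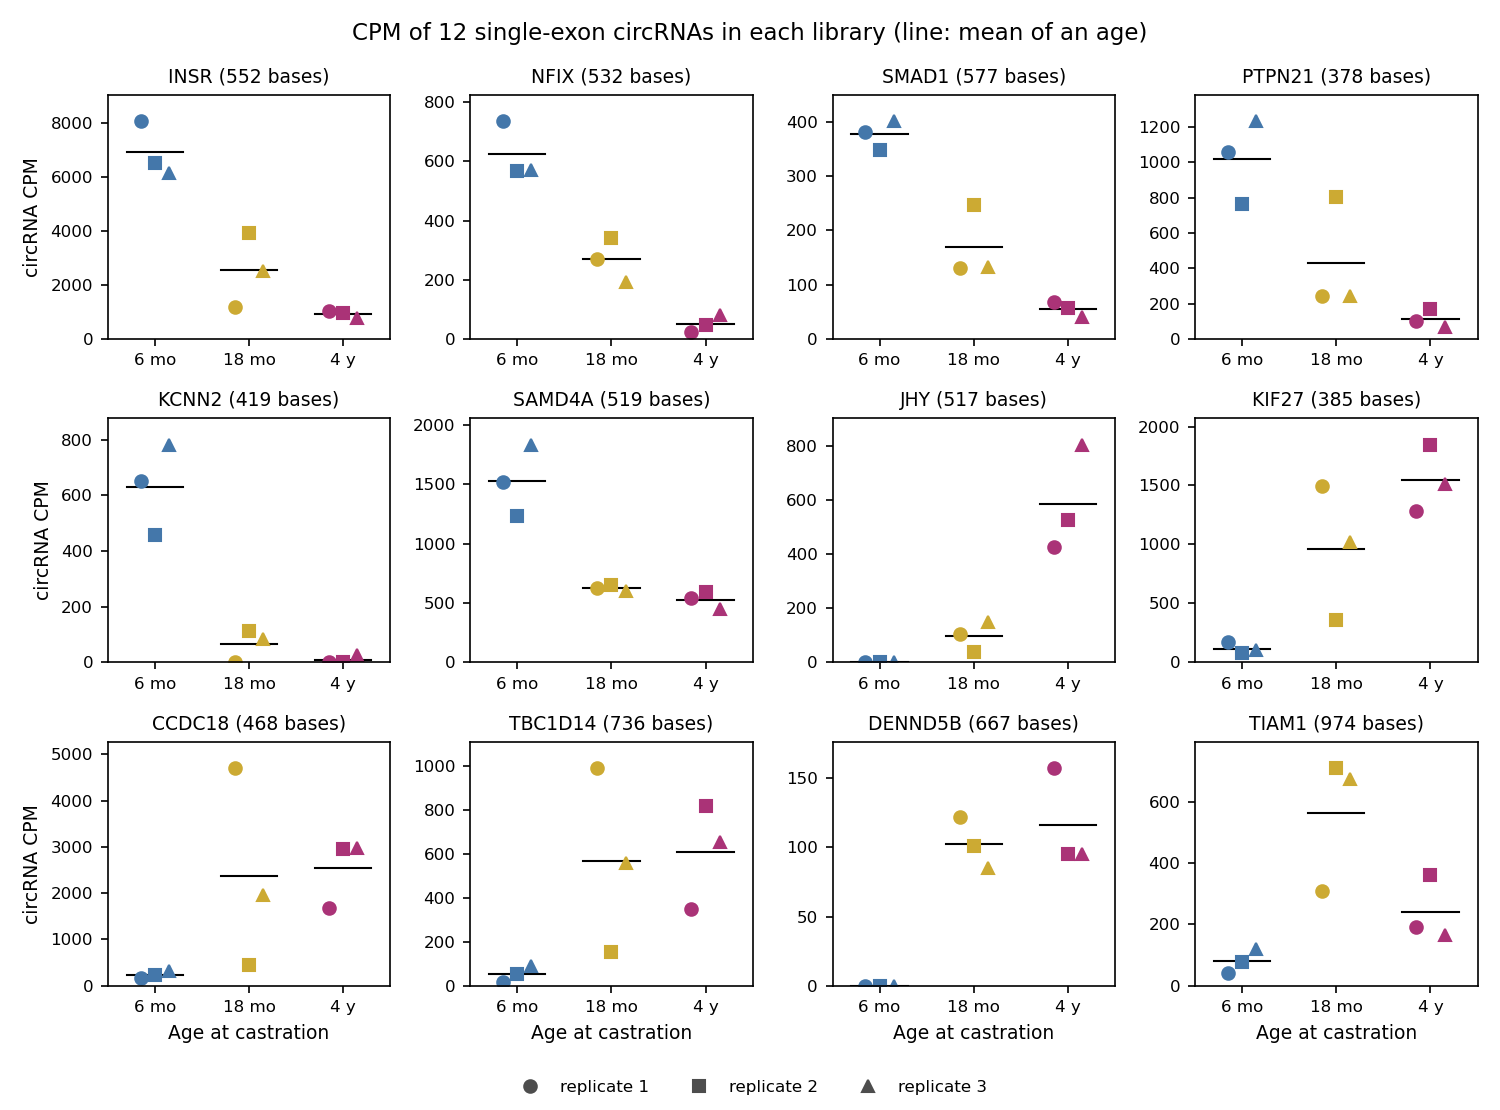
Level of 12 single-exon circRNAs in every library by age, in CPM (reads per 1000000 back-splice reads of tested circRNAs), each panel on its own linear axis from 0, with a line at the mean of 3 libraries. INSR, NFIX, SMAD1, PTPN21, KCNN2 and SAMD4A were lower at 4 years, JHY, KIF27, CCDC18, TBC1D14 and DENND5B higher, and TIAM1 was higher at 18 months.

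Between 6 and 18 months 7 members rose and none fell (5.07% of 138, against 5.26% of all tested circRNAs, of which 4.72% rose and 0.542% fell). An unadjusted p under 0.05 was found for 37 members, and DESeq2 called 28, of which 19 were higher and 9 lower. No such counts over all tested circRNAs are given here, so these describe the members alone. The 7 were rings of DENND5B, JHY, KIF27, CCDC18, TIAM1, TBC1D14 and DNAH9, and in all 7 the 6-month and 18-month libraries did not overlap. Members without overlap numbered 46 (33.3%, against 32.1% of all tested circRNAs). The median log2 difference was 0.24 over the tested members and 0.21 over all tested circRNAs. The 7 calls were mostly lost when a library was left out. Without 18-month replicate 2, 16 members passed, all 7 among them, and without 4-year replicate 2 only 3 of the 7 passed. Without 6-month replicate 2, 1 member passed, which was not among the 7. None passed when any of the other 6 libraries was left out. Each of the 7 passed in 1 or 2 of these 9 fits.

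Between 6 months and 4 years 35 of the 138 members were called (25.4%, against 21.0% of all tested circRNAs). Of these 21 rose (15.2% of all circRNAs did) and 14 fell (5.80% of all). The libraries of the 2 ages did not overlap for 73 members (52.9%, against 49.5%), including all 35 called. The median log2 difference over the members was -0.09, against 0.16 over all tested circRNAs. With any 6-month or 4-year library left out, 13 to 19 members were called. In all 9 fits that left out a library, 8 members passed (JHY, DNAH9, SPATA16, SPHKAP, DENND5B, NFIX, INSR and KIF27). Of these, the rings of JHY, DNAH9, SPATA16, SPHKAP and DENND5B had no read at 6 months.

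**Figure D3:**
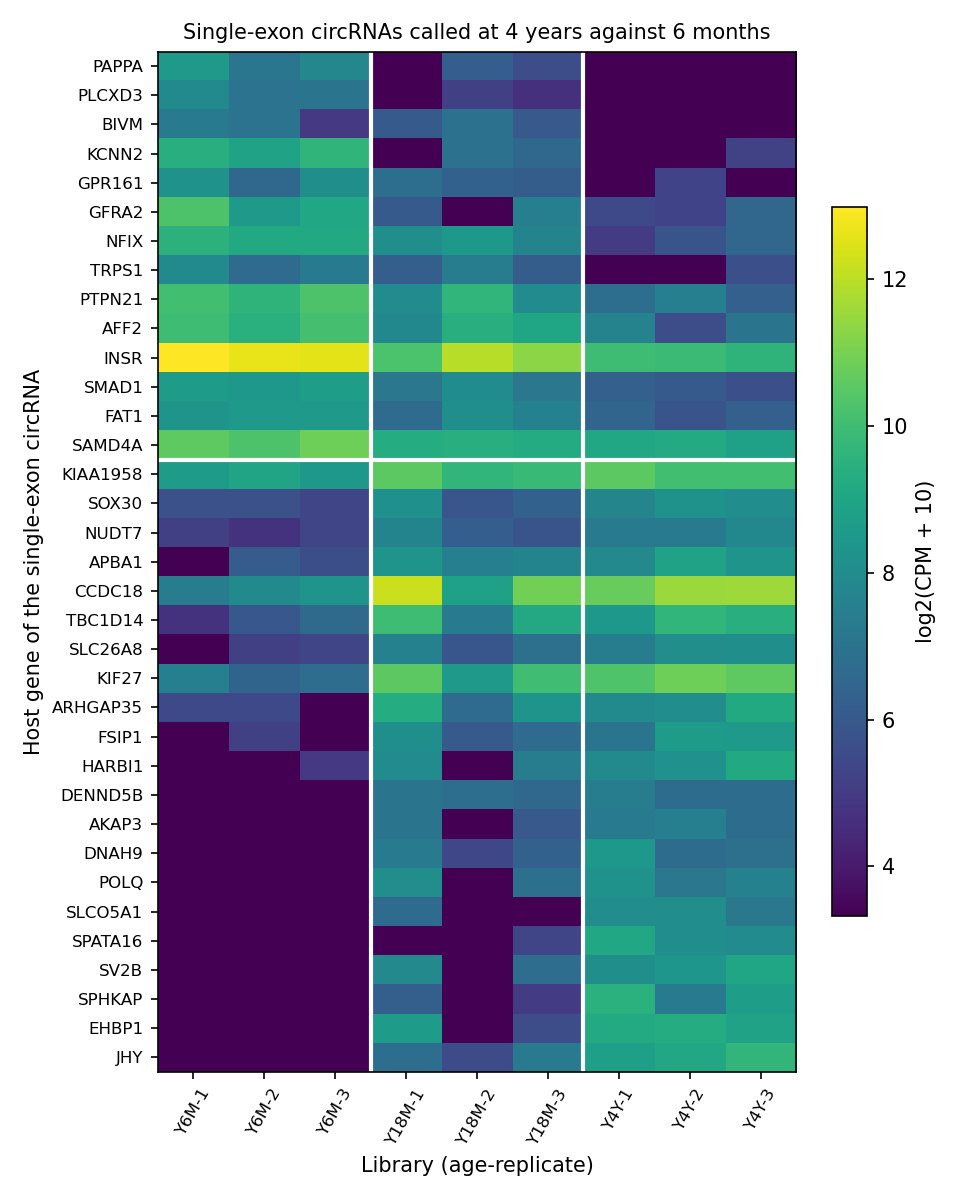
Heat map of the 35 members called between 6 months and 4 years (one per line, named by host), with the 9 libraries grouped by age as columns and colour giving log2(CPM + 10). The 14 members above the white line were lower at 4 years and the 21 below it higher, and 18-month replicate 1 is closer to the 4-year libraries than 18-month replicate 2 is.

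NFIX, a transcription factor of the nuclear factor I family, gave a 532-base ring (chr7:12547514-12548045, minus strand) at 736.3, 569.2 and 572.0 CPM at 6 months, 271.2, 342.0 and 193.7 at 18 months, and 22.5, 47.6 and 81.7 at 4 years. The ages did not overlap at any step, and the ring fell by 3.62 ± 0.64 (log2) from 6 months to 4 years (adjusted p = 0.00973). SMAD1, which carries BMP signals to the nucleus, gave a 577-base ring at 380.9, 348.3 and 401.4, then 130.9, 247.0 and 131.7, then 67.5, 57.1 and 40.9 CPM. It too was ordered by age without overlap, and fell by 2.74 ± 0.59 (adjusted p = 0.0144). That call was lost without 4-year replicate 2 or 3 (adjusted p = 0.0516 and 0.0562) and with no filter on low counts (0.138).

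PTPN21, a tyrosine phosphatase of the cytoplasm, gave a 378-base ring that held 96.7% of its host's back-splice reads. It stood at 1057.9, 764.6 and 1234.4 CPM at 6 months, 243.1, 804.3 and 240.2 at 18 months, and 101.2, 171.4 and 68.1 at 4 years. Replicate 2 at 18 months lay within the 6-month range, and all 4-year values lay below the rest (log2 -3.14 ± 0.67, adjusted p = 0.0144). AFF2, an X-linked gene of the elongation factor family, gave an 864-base ring at 990.2, 688.2 and 1124.0, then 215.1, 646.0 and 496.0, then 191.2, 38.1 and 122.6 CPM. The 4-year values lay below all others, and the ring fell by 2.99 ± 0.69 (adjusted p = 0.0178). The PTPN21 call was lost without 4-year replicate 1 or 3 (adjusted p = 0.05 and 0.0534), and that of AFF2 without 6-month replicate 1 or 3 or 4-year replicate 2 or 3 (0.051 to 0.0583).

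KCNN2, a potassium channel opened by calcium, gave a 419-base ring at 651.7, 458.8 and 782.8 CPM at 6 months, 0, 114.0 and 85.2 at 18 months, and 0, 0 and 27.2 at 4 years. It was nearly lost at the oldest age, with a ratio of 6 months to 4 years of 83.3 (95% counting interval 22.8 to 692.1, adjusted p = 0.0174). The call was kept in 7 of 9 fits that left out a library, and without 4-year replicate 1 or 2 the adjusted p was 0.0597 or 0.0599. Rings of PAPPA (a protease that frees insulin-like growth factors), PLCXD3 and BIVM were not read at all at 4 years, so only a fall could be found for them. They were at least 21.0-fold, 14.1-fold and 9.03-fold lower there than at 6 months, against a floor of 3 reads over the age. Their calls were kept in 6, 3 and 4 of 9 fits that left out a library. The others that fell were rings of GPR161, FAT1, SAMD4A, GFRA2 and TRPS1, with calls kept in 5, 3, 3, 3 and 1 of 9 fits. FAT1, an atypical cadherin, gave one of the longest tested members (3283 bases), at 313.1 to 361.3 CPM at 6 months and 47.6 to 78.7 at 4 years.

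Of the 21 that rose, 10 had no read in any 6-month library. These 10 reached the read minimum through the older ages alone, so only a rise from 6 months could be found for them. JHY, a gene linked to motile cilia, gave a 517-base ring (chr15:33533149-33533665, plus strand) at 0 in all 6-month libraries, 102.9, 38.0 and 147.2 CPM at 18 months, and 427.3, 523.8 and 803.7 at 4 years. The ages followed each other without overlap. It was at least 10.2-fold higher at 18 months (adjusted p = 0.0284) and at least 63.6-fold higher at 4 years (adjusted p = 0.00632) than at 6 months.

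KIF27, a kinesin with a role in ciliary signalling, gave a 385-base ring at 169.3, 76.5 and 100.4, then 1496.0, 354.6 and 1023.0, then 1282.0, 1847.5 and 1512.1 CPM. Both older ages lay above all 6-month libraries and overlapped each other, with log2 differences from 6 months of 3.04 ± 0.62 (adjusted p = 0.0293) and 3.73 ± 0.63 (adjusted p = 0.00923). CCDC18, a coiled-coil protein, gave a 468-base ring at 160.8, 237.9 and 311.1, then 4703.2, 449.6 and 1952.9, then 1675.6, 2961.7 and 2983.2 CPM. At 18 months its libraries were far apart, replicate 2 being close to the 6-month level and replicate 1 above the 4-year one. The differences were 3.32 ± 0.76 (adjusted p = 0.0428) and 3.42 ± 0.77 (adjusted p = 0.0159). Without 18-month replicate 1 the first was 2.36 (adjusted p = 0.113), and the second was lost without 6-month replicate 1 (3.12, adjusted p = 0.0612).

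TBC1D14, a Rab regulator of autophagy, gave a 736-base ring at 16.9, 51.0 and 90.3, then 991.1, 152.0 and 558.0, then 348.6, 819.0 and 653.9 CPM. It rose by 3.41 ± 0.85 (adjusted p = 0.0483) and 3.51 ± 0.86 (adjusted p = 0.0212), and again 18-month replicate 2 was lowest of its age. The 18-month difference was 2.76 without 18-month replicate 1 (adjusted p = 0.142) and 4.06 without 6-month replicate 3 (adjusted p = 0.0905). The 4-year call was lost without 6-month or 4-year libraries in 4 of 9 fits (adjusted p = 0.0533 to 0.0707). DENND5B gave a 667-base ring at 0 in the 6-month libraries, at 121.6, 101.3 and 85.2 CPM at 18 months and at 157.4, 95.2 and 95.4 at 4 years. Here the 18-month libraries were close together and at the 4-year level, at least 11.4-fold (adjusted p = 0.0281) and 13-fold (adjusted p = 0.0133) above 6 months.

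TIAM1, an exchange factor for the GTPase Rac, was the only one of the 7 early members without a call on its level at 4 years. Its 974-base ring stood at 42.3, 76.5 and 120.4, then 308.6, 709.3 and 674.2, then 191.2, 361.9 and 163.5 CPM. The 18-month and 4-year libraries overlapped, both above 6 months, with differences of 2.81 ± 0.67 (adjusted p = 0.0437) and 1.58 ± 0.65 (adjusted p = 0.106). The symbols TIAM1, PDE5A and GPC5 stand on more than 1 gene identifier in the gene table, which leaves the host's own level uncertain for them.

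The spermatid, acrosome and sperm tail list of 82 genes held 9 members, of which 4 had enough reads for a test. Called higher were 1 of the 4 at 18 months and 4 of the 4 at 4 years, against 4.72% and 15.2% of all tested circRNAs. These 4 had 0 or 3 reads at 6 months and reached the read minimum through the older ages alone, so their count is a description and shows nothing about the 9. DNAH9, a dynein heavy chain of cilia and flagella, gave an 871-base ring at 0 at 6 months, 149.6, 31.7 and 69.7 CPM at 18 months and 348.6, 95.2 and 109.0 at 4 years. It was at least 8.52-fold (adjusted p = 0.0498) and 20.5-fold (adjusted p = 0.0144) higher than at 6 months. SPATA16, needed for the acrosome, gave a 616-base ring that was read in 1 of the 18-month libraries, at 31.0 CPM, and stood at 539.8, 257.1 and 245.2 at 4 years. It was at least 38.9-fold higher at 4 years than at 6 months (adjusted p = 0.0144).

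AKAP3, an anchor of protein kinase A in the fibrous sheath of the sperm tail, gave a 2325-base ring, at least 15.9-fold higher at 4 years than at 6 months. FSIP1, named for its binding to that sheath, gave a 511-base ring with a ratio of 32.6 (95% counting interval 10.8 to 161.6). The AKAP3 call was kept in 2 of 9 fits that left out a library, and that of FSIP1 in 5 of 9. A second anchor of protein kinase A outside the list, SPHKAP, gave a 3772-base ring, the second longest tested. It was unread at 6 months, stood at 65.5, 0 and 23.2 CPM at 18 months and at 708.5, 152.4 and 408.7 at 4 years (at least 45.6-fold higher, adjusted p = 0.0154). Beside the germ cell markers given above, the sum over 4 markers of epididymis and rete moved from 1.72 to 4.7 gene CPM at 6 months to 90.5 to 102.7 at 4 years. That over 5 erythrocyte markers, with HBM at 0 in every library, moved from 1.55 to 3.33 up to 85.4 to 140.8. A sum does not show which of its markers moved, so it is no measure of the amount of blood. The part of any of these in the levels of the 4 rings was not tested.

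No other list had a called member. Tested members were MEI4 for meiotic prophase (4 members in all, log2 0.97 ± 1.01 between 6 months and 4 years), GPC3 for extracellular matrix (11 members, -0.71 ± 1.06), and RNF111 for ubiquitin ligases (14 members). They were MBNL2 and SRSF1 for RNA binding and splicing (16 members, median 0.02), and CHD6, CREBBP, NSD3 and KDM2A for chromatin modifiers (31 members, median -1.08). Spermatogonial, Sertoli and Leydig cell lists held 3, 3 and 4 members, and none had enough reads for the test. At 4 years the rings of CHD6 (a chromatin remodeller) and CREBBP (a histone acetyltransferase) lay below all 6-month libraries, at 228.6 to 247.4 against 380.9 to 671.2 CPM and at 27.2 to 67.5 against 100.4 to 169.3. Neither passed the test (adjusted p = 0.224 and 0.218).

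Among hosts known elsewhere for single-exon rings, ZNF609, a zinc finger gene, gave an 874-base ring (chr10:45555429-45556302, minus strand) with 250 of the 279 back-splice reads of the host. It stood at 152.3, 220.9 and 160.6 CPM at 6 months, 0, 126.7 and 286.7 at 18 months, and 528.6, 428.5 and 558.5 at 4 years. The 4-year libraries lay above all others, and the difference from 6 months, 1.5 ± 1.0, did not pass the test (adjusted p = 0.306). FOXO3, a forkhead transcription factor, gave a 1436-base ring with 30 reads and HIPK2, a nuclear kinase, a 1084-base ring with 3, both too few to test. HIPK3 and SLC8A1 gave 5 and 11 circRNAs, none of the single-exon class, and PVT1 gave none.

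Between 18 months and 4 years no member was called by edgeR's quasi-likelihood test (0% of all tested circRNAs were; smallest adjusted p of a member 0.444). An unadjusted p under 0.05 was found for 19 members, and DESeq2 called 3 members, the rings of JHY, SPATA16 and NFIX. These counts too are given without a share over all tested circRNAs. The libraries of the 2 ages did not overlap for 36 members (26.1%, against 19.2% of all tested circRNAs). The 18-month libraries differed strongly among themselves. Of the 21 members that rose between 6 months and 4 years, 20 were nearer in 18-month replicate 1 to their 4-year than to their 6-month mean, 4 in replicate 2 and 15 in replicate 3. Of the 14 that fell, the counts were 10, 3 and 7. The same order of replicates was seen in the summed markers of germ cells (1902.0, 390.7 and 982.9 gene CPM) and erythrocytes (90.0, 12.6 and 35.7). It was also seen in those of epididymis and rete (87.0, 37.6 and 78.0) and macrophages (120.4, 66.4 and 77.7). Sertoli cell (416.9, 1476.4 and 805.1), Leydig cell (2652.1, 6935.8 and 5663.8), peritubular and T cell sums ran in the reverse order. Endothelium (117.8, 137.3 and 197.9) followed neither order. The part of any of these was not tested.

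The age of the highest level was 18 months least often. By mean CPM 56 members were highest at 6 months (40.6%, against 37.6% of all tested circRNAs), 31 at 18 months (22.5%, against 21.3%) and 51 at 4 years (37.0%, against 41.1%). In 5 members (3.62%, against 1.26%) every 18-month library exceeded all 6 others: SLC9A2, KATNIP, RSPH10B, KDM2A and SNAP47. The 464-base ring of SLC9A2, a sodium and proton exchanger, stood at 101.6, 144.4 and 250.9, then 794.8, 1108.3 and 1038.5, then 461.1, 95.2 and 27.2 CPM. None of the 5 was called on its level by edgeR's quasi-likelihood test in any comparison, and RSPH10B was called relative to its host, as given with the host comparison.

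The level of a ring was next set against the count of its host gene in the same library. The circRNA and host differences had the same sign in 100 of 138 members between 6 months and 4 years. Their Spearman correlation was 0.63 (n = 138 members, which share libraries and normalisation). The gene count may also hold reads from the ring itself, so these comparisons with the host are not between independent measures. Of the 21 members that rose, 19 had a host gene called higher and 2, NUDT7 and ARHGAP35, a host gene without a call. Of the 14 that fell, 12 had a host called lower, 1 (GPR161) a host without a call and 1 (SAMD4A) a host called higher. No such correlation or counts are given here for other circRNAs, so these values describe the members alone.

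Relative to the host gene 17 members were called between 6 months and 4 years, 7 higher and 10 lower (12.3%, against 8.66% of all circRNAs tested this way, 4.11% higher and 4.55% lower). Of the 17, 8 were also called on their level. Scaled by library size alone, 18 were called, 3 higher and 15 lower, of which 13 were among the 17. Between 6 and 18 months 1 member was called, ADGRL3, which was lower (0.725%, against 0.745% of all, 0.386% higher and 0.359% lower), with 27 at an unadjusted p under 0.05. Between 18 months and 4 years none was (0.0276% of all), with 19 at an unadjusted p under 0.05 and 1 called by limma on the log ratio. Counts at an unadjusted p and in other settings are given for the members alone, without a share over all circRNAs. With libraries left out, 1 to 5 members were called at 4 years without 6-month replicate 1, 2 or 3 or 18-month replicate 3, 1 without 4-year replicate 1, and none without 4-year replicate 2 or 3. ADGRL3 passed in none of the 9 fits that left out a library.

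**Figure D4:**
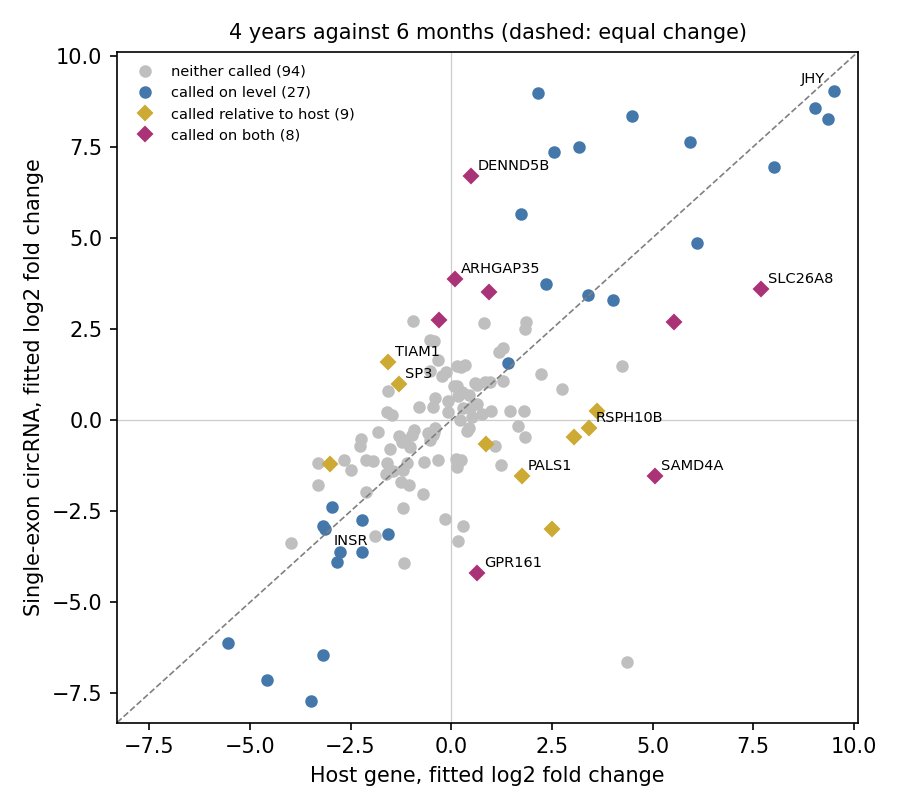
Difference between 4 years and 6 months of each host gene (x axis, fitted log2) against that of its single-exon circRNA (y axis, fitted log2) for the 138 tested members, with a dashed line where both changed equally. Colours show the members called on level, relative to the host, on both or on neither. SAMD4A lies far below the line (host gene 5.06, circRNA -1.54) and DENND5B, unread at 6 months, far above it.

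SAMD4A, an RNA-binding repressor of translation, was the only called member whose host gene was called in the opposite direction. Its 519-base ring (chr10:67199994-67200512, plus strand) stood at 1523.4, 1231.9 and 1836.5 CPM at 6 months, 626.5, 652.3 and 604.5 at 18 months, and 539.8, 590.4 and 449.5 at 4 years. The host gene stood at 16.1, 23.0 and 23.7 gene CPM, then 568.6, 49.8 and 212.5, then 750.5, 786.2 and 561.4. The ring was highest and the host lowest at 6 months, without overlap with the older ages in either. Between 6 months and 4 years the ring fell by 1.54 ± 0.40 (adjusted p = 0.0253), the host rose by 5.06 ± 0.78, and relative to the host the ring fell by 6.59 ± 0.93 (adjusted p = 0.0124). At 18 months the host of the 3 animals ranged over more than 10-fold while the ring stayed between 604.5 and 652.3. The call relative to the host was kept in 7 of 9 fits that left out a library. The fall of the ring itself was kept in 3 of 9, those without an 18-month library, and lost when any 6-month or 4-year library was left out (log2 -1.68 to -1.40, adjusted p 0.0558 to 0.0902) and with no filter on low counts (adjusted p = 0.329).

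PALS1, a scaffold of cell polarity, gave a 534-base ring at 560.7 to 897.1 CPM at 6 months and 236.2 to 276.2 at 4 years, while its host moved from 46.2 to 52.2 up to 148.1 to 190.5 gene CPM. Relative to the host the ring was lower by log2 -3.22 ± 0.57 (adjusted p = 0.0159, kept in 5 of 9 fits). RSPH10B, a radial spoke protein of cilia, gave a 353-base ring at 42.3 to 250.9 and 27.2 to 314.9 CPM at these ages, while its host moved from 1.91 to 2.37 up to 17.3 to 30.5 gene CPM. That ring was lower relative to the host by -3.58 ± 0.86 (adjusted p = 0.0366, kept in 3 of 9 fits). GPR161, a Hedgehog pathway receptor of the cilium, was the other member among the 4 with the smallest p in this direction, also kept in 3 of 9 fits.

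In the other direction SP3, a zinc finger transcription factor, gave a 1360-base ring at 406.2, 594.7 and 521.8, then 682.6, 582.6 and 844.7, then 888.4, 1161.8 and 953.5 CPM. All 4-year libraries lay above the rest, although the level itself did not pass (log2 0.98 ± 0.42, adjusted p = 0.117). The SP3 gene fell from 130.5 to 170.9 gene CPM at 6 months to 55.4 to 71.2 at 4 years, and relative to it the ring rose by 2.25 ± 0.46 (adjusted p = 0.0233, kept in 4 of 9 fits). The DENND5B ring rose relative to its host as well (adjusted p = 0.0239, kept in 3 of 9 fits), since the gene stood at 54.2 to 73.7 gene CPM at 6 months and 87.3 to 93.9 at 4 years while the ring was not read at 6 months. With no read at that age, only a rise from it could be found for this ring. ARHGAP35 gave the longest tested ring (3877 bases), higher by 3.84 ± 1.0 relative to a host gene that differed by 0.08 (kept in 2 of 9 fits). NUDT7, a peroxisomal hydrolase of coenzyme A, and TIAM1 were higher by 3.11 ± 0.78 and 3.13 ± 0.78 relative to their hosts, calls that were kept in 2 and 1 of 9 fits.

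Single-exon and multi-exon rings of the same host could be compared directly in 77 hosts, as sums within each library. Between 6 months and 4 years the change differed between the classes in 6 hosts (7.79% of the 77), with the single-exon sum ahead in 3 and behind in 3 (3.90% each). Between 6 and 18 months this was so in 4 hosts (5.19%, with 2 ahead and 2 behind, 2.60% each), and between 18 months and 4 years in none (0%, with 9 at an unadjusted p under 0.05, and none by limma). Among the hosts ahead, DENND5B (at 18 months and 4 years) and THAP4 (at 4 years) had no single-exon read at 6 months. Their single-exon sums reached the read minimum through the older ages alone, so against 6 months they could only come out ahead. The median difference between the classes over the 77 hosts was 0.35 between 6 and 18 months, 0.29 between 6 months and 4 years and -0.04 between 18 months and 4 years. At 4 years 2 or 3 hosts were called without 6-month replicate 1 or 2, 18-month replicate 3, or 4-year replicate 1 or 3.

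KIF27 and RNF111 passed in all 9 fits that left out a library, at both ages. In KIF27 the single-exon sum rose from 121.0 ± 41.9 CPM (SD, n = 3) to 957.9 ± 573.5 and 1547.2 ± 284.4, while the multi-exon sum stood at 847.6 ± 173.6, 639.8 ± 375.7 and 1243.4 ± 216.8. The classes differed by 3.36 ± 0.45 (log2, adjusted p = 9.97e-04) at 18 months and 3.13 ± 0.45 (adjusted p = 9.27e-04) at 4 years. In RNF111 the single-exon sum was 4755.3 ± 393.0, 3983.6 ± 707.4 and 3233.5 ± 1093.0 CPM, and the multi-exon sum, far smaller, was 136.3 ± 44.8, 392.6 ± 122.9 and 400.8 ± 198.0. The differences were -1.78 ± 0.27 (adjusted p = 0.0015) and -2.09 ± 0.27 (adjusted p = 7.91e-04).

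In ADGRL3, an adhesion receptor of the latrophilin family, the multi-exon sum rose from 264.4 ± 128.1 to 1008.0 ± 676.8 and 2030.2 ± 91.2 CPM. Its 801-base single-exon ring stood at 203.1, 76.5 and 100.4, then 28.1, 0 and 0, then 157.4, 76.2 and 40.9. The class difference was -5.86 ± 1.07 at 18 months (adjusted p = 0.00533, 9 of 9 fits) and -3.51 ± 0.91 at 4 years (adjusted p = 0.0361, 3 of 9 fits). In PALS1 the single-exon sum stood at 743.5 ± 170.1, 684.2 ± 286.1 and 257.1 ± 20.1 CPM and the multi-exon sum at 563.3 ± 39.3, 811.5 ± 62.1 and 995.9 ± 257.0 (4 years, -2.30 ± 0.57, adjusted p = 0.0325, 2 of 9 fits). DENND5B moved the other way, its multi-exon rings being read at 401.4 to 475.8 CPM at 6 months when its single-exon ring was at 0 (adjusted p = 0.0216 at 18 months and 0.0147 at 4 years). THAP4, which holds a zinc-binding THAP domain, had a single-exon sum of 0 at 6 months, 0, 31.7 and 38.7 at 18 months, and 326.1, 104.8 and 258.8 at 4 years. Its multi-exon sum stayed between 56.2 and 346.0 CPM over the 9 libraries (4 years, adjusted p = 0.0325, 4 of 9 fits).

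**Figure D5:**
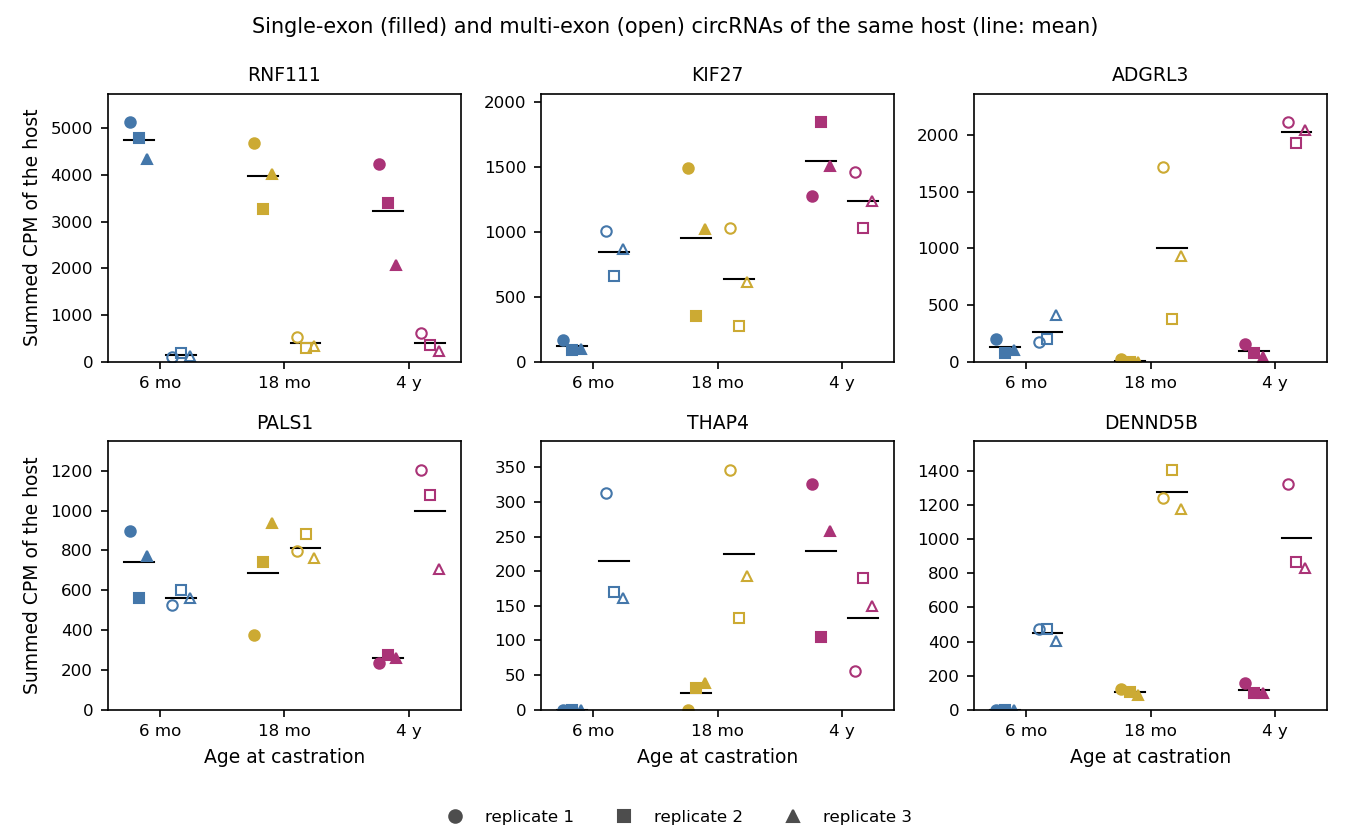
Summed CPM of single-exon (filled) and multi-exon (open) circRNAs of 6 hosts in every library by age, on linear axes from 0. In KIF27 the single-exon sum rises from 121.0 to 1547.2 on average, in RNF111 it stays above the multi-exon sum at all ages, and in ADGRL3 the multi-exon sum rises while the single-exon sum does not.

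Length and the differences between ages were only weakly related across members. Over the 138 tested members the Spearman correlation of length with the log2 difference was 0.06 for the step from 6 to 18 months, 0.16 for that from 6 months to 4 years and 0.18 for that from 18 months to 4 years. The median length was 736 bases in the 21 members that rose and 564.5 in the 14 that fell, against 676.5 in all tested members and 474 in those not tested. Among the shortest tested rings, those of SGCB (210 bases), NCOA7 (221) and RIMKLB (231), none was called. Members sharing a junction end with a multi-exon circRNA were called at a rate of 24.5% (106 members) and those sharing none at 28.1% (32 members). In hosts with several tested members the rings could be set side by side, as in TMTC2, an endoplasmic reticulum mannosyltransferase. Its 571-base ring ranged from 787.2 to 1726.5 CPM and its 829-base ring from 221.7 to 580.9, and neither was called at any age.

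The authors' deposited table of differential circRNAs lists 53 members between 6 and 18 months (2.88% of its 1841 entries), 100 between 6 months and 4 years (2.52% of 3962) and 33 between 18 months and 4 years (3.63% of 908). All 7 and all 35 members called here are in those lists. The lists rest on the same libraries and give a p-value, while calls here used an adjusted p. The inclusion is therefore no independent support, and directions were not compared. The largest p-values listed for members are 0.0481, 0.0498 and 0.0492, and 26, 49 and 15 of the listed members had too few reads for the test used here. The authors' deposited predictions of microRNA binding cover 79 members, with 14 (PTPN21, 378 bases) to 284 (ARHGAP35, 3877 bases) microRNAs each and a median of 53. The number followed length (Spearman correlation 0.89, n = 79 members).

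Of the 6 microRNAs predicted for most members, 1 has its sequence in the deposited microRNA table, where a cattle miRNA is written with T for U. It is listed for 16 of the 79 members and had 599 to 2632 counts in the 9 small RNA libraries. It is shown with its seed, bases 2 to 8, in capitals, so that the predictions can be read against a ring:
bta-miR-214: aCAGCAGGcacagacaggcagt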

How the data were processed

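Single-exon circRNAs were taken from the deposited table, which per the file headers gives a count of back-splice reads per circRNA and library with its annotation class and spliced length. Host gene values were deposited as estimated counts, with fractional values for 3137 of 22183 genes, and were rounded. Per the submitters' processing notes StringTie 1.3.4, HISAT2 2.1.0, fastp 0.18.0 and the build UMD3.1 were used, in roles not stated. The circRNA finder is not given in the sources used here, and whether the coordinates follow that build was not settled, so they are printed as the files give them. The tables of differential circRNAs hold log2 ratios and p-values as the authors deposited them, and only the p-values and listings were used. No genome was used, so no circRNA sequence is printed.

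Each circRNA was tested with edgeR 4.0.16 (R 4.3.3; filterByExpr, TMM, quasi-likelihood test) in 1 fit of 9 libraries, with p-values adjusted over all 3877 circRNAs tested. SE is the log2 ratio divided by the square root of F. For the test relative to the host, log(host CPM + 0.5) was added as an offset (host CPM with TMM scaling, marker sums without), over the 3626 circRNAs whose host gene was tested. Single-exon and multi-exon sums of a host were compared by a class by age interaction with the library as a block. Shares, lengths and detection were tested by exact permutation of libraries over ages, on the spread between ages and so without direction. A ratio against an age with no read used a floor of 3 reads over the age, and intervals are 95% and, like floors, cover counting error only. The fits were tested on simulated data with known changes. DESeq2 1.42.0 and limma 3.58.1 were alternatives. The labels name 1 animal per library.

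Named members were, per comparison and direction, the 6 called members of smallest p whose ages did not overlap and whose ratio reached 2, the 12 highest by mean CPM, members of fixed hosts and lists, the extremes of length, and the 4 smallest p relative to the host or to multi-exon rings. Other members named with a count were chosen after their values were seen. Members and lists were chosen with earlier results of these data known.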

Additional observations from a re-analysis of the deposited data

How the results depend on the processing

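Counts of called members moved with the setting, while none of the 364 alternative values of the 26 called results of named members changed sign (243 kept the call and 121 lost it). Between 6 and 18 months, where 7 were called, DESeq2 called 28 and leaving out 1 library gave 0 to 16. Between 6 months and 4 years, with 35, leaving out 1 library gave 13 to 39. Between 18 months and 4 years, with 0, DESeq2 called 3 and no filter on low counts 1. Relative to the host, library size alone and limma each gave 5 in place of 1 at 18 months, limma gave 1 in place of 0 between 18 months and 4 years, and leaving out 1 library gave 0 to 1 in place of 1, and 0 to 20 in place of 17 at 4 years. Against multi-exon rings, leaving out 1 library gave 2 to 7 hosts in place of 6 at 4 years. By limma on the log ratio 6 hosts were called there, with the single-exon sum ahead in 5 and behind in 1. Of these, 4 were among the 6 of the main fit, so the even split of directions depended on the method.

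Replicate numbers name different animals, and same-numbered libraries did not deviate together (correlations of -0.02 to 0.01), so the numbers pair nothing. With the replicate block 0 members were called at 18 months and 7 at 4 years, and relative to the host 0 and 0.

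The share of reads differed between 4 years and 6 months by -1.28 percentage points, and by -0.533 without the 10 most abundant members (chosen after seeing the data), where the call was lost. The difference in read-weighted median length was 98.3 bases, and 103.3 among members that passed the filter, where the exact permutation test was passed (p = 0.0357). The difference in detected members was 29.2, 35.0 without thinning, where the call was lost, and 14 to 50.8 with 1 library left out. Counting only members with at least 2 reads after thinning, it was 17.6, and the exact permutation test was passed (p = 0.00357). By that count the ages held 308.2 ± 3.48, 340.5 ± 0.664 and 325.8 ± 4.16 members (SD). The cause of these changes was not tested. Tested members had 47 to 4007 reads in all, with a median of 144.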

Other observations

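In 10 members a library without any read stood beside 2 libraries of the same age with at least 20 reads each: KAT14, PHLDB2, FGD5, ANKS3, ZNF609, ZBTB10, HARBI1, SNX29, FASTKD1 and KANSL1. A ring of ANKS3, a protein with ankyrin repeats, was read 225, 180 and 0 times at 6 months, 0, 207 and 224 times at 18 months, and 0, 0 and 34 times at 4 years. A ring of SNX29, a sorting nexin, was read 166, 125 and 66 times, then 0, 159 and 91, then 52, 35 and 30. Among single-exon circRNAs with 20 reads in 2 libraries of an age, 6.7%, 9.0% and 2.0% had none in the remaining library at 6 months, 18 months and 4 years, against 9.6%, 11% and 11% of all circRNAs. Without these 10 members, an alternative chosen after seeing the data, 7, 34 and 0 of the others were called in the 3 comparisons, HARBI1 being the 1 of them called.

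The members of the hosts with most single-exon rings were mostly rare. BCL11B, a zinc finger transcription factor, gave rings of 366 and 369 bases that share a start, with 14 and 32 reads. PCMTD1, a methyltransferase-domain protein, gave rings of 432 and 416 bases that share an end, with 34 and 3 reads. The 251-base ring of RNF130, a ubiquitin ligase, was read 65 times in 4-year replicate 1 and at most 10 times in any other library.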
